A study of Mus musculus with 17 samples.

Results

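Respiratory complex I, the NADH:ubiquinone oxidoreductase of the inner mitochondrial membrane, was examined through the genes of its nuclear-encoded subunits in mouse pancreatic islets. Members were the genes measured by a probe set that names 1 gene and whose symbol is Ndufa, Ndufb, Ndufc, Ndufs or Ndufv followed directly by a number. The rule found 35 of the 19938 genes measured. Of these, 33 are subunits of complex I, and Ndufa4 and Ndufa4l2 match by symbol: Ndufa4 is now assigned to complex IV, and Ndufa4l2 is its paralogue. Subunits encoded in mitochondrial DNA were not analysed here. Each member is represented by 1 probe set, and its level is a log2 intensity.

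The data are 17 whole-transcript microarrays of islet RNA from untreated mice, 2 months old in every group. The groups are wt (3 arrays), RIP-Cre (3 arrays), Men1flf RIP-Cre (3 arrays), Rbp2flf RIP-Cre (4 arrays) and Men1flf Rbp2flf RIP-Cre, the double group (4 arrays). RIP-Cre expresses Cre recombinase from the rat insulin promoter, which is active in beta cells, and is carried by every group except wt. Islets also hold alpha, delta and other cells in which that promoter is not expected to act, so their RNA dilutes a change in beta cells. The product of Men1 is menin, a tumour suppressor of endocrine glands and a partner of histone H3 lysine 4 methyltransferases. Rbp2 is a histone H3 lysine 4 demethylase now named Kdm5a. Array titles number the repeats of a group without saying whether they are separate animals, so p-values rest on array-to-array spread alone, which may be technical. The comparisons ask what each knockout changes against RIP-Cre, what the double group changes against each single knockout, and whether the effects of both alleles add up on the log2 scale.

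Complex I takes electrons from NADH, passes them along a chain of iron-sulfur clusters in its peripheral arm to ubiquinone, and pumps protons through its membrane arm. The core subunits carry the catalysis, and the accessory subunits assemble and stabilise the complex around them. In beta cells, respiration driven by NADH from glucose metabolism raises ATP and so triggers insulin release.

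Promoters were compared because many members moved together. RefSeq promoter windows (assembly GRCm38.p6, 250 bases before to 50 after the annotated start) were matched by symbol for 31 of the 35 members. The 6 windows shown belong to members whose values on each array are given below: Ndufb6, Ndufs7, Ndufa9 and Ndufs6 for their increases, and Ndufb7 and Ndufa7 because they fell in Men1flf RIP-Cre islets. Capitals mark matches, on either strand, to the letters of 3 factors known for mitochondrial genes: GCGCA, any base and GCGC for NRF1, CCGGAAG for the ETS factor GABPA and AANATGGC for YY1.
Ndufb6, chr4:40279372-40279671, minus strand: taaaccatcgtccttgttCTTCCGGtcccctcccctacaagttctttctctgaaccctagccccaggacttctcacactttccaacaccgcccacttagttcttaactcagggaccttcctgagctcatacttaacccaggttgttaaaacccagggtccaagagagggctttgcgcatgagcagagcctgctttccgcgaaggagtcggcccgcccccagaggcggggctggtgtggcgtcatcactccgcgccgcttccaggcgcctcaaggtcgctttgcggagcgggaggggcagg
Ndufs7, chr10:80249199-80249498, plus strand: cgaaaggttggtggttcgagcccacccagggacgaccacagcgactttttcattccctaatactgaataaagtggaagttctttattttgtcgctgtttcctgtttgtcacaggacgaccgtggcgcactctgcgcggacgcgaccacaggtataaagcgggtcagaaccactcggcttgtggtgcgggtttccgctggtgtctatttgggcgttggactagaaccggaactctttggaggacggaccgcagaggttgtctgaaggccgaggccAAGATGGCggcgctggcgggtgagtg
Ndufa9, chr6:126849095-126849394, minus strand: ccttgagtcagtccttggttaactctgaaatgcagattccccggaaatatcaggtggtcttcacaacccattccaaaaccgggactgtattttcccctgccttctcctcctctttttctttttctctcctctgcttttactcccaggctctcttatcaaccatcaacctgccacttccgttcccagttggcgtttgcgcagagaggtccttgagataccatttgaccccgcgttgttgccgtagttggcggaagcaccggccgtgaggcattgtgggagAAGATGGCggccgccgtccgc
Ndufs6, chr13:73328433-73328732, minus strand: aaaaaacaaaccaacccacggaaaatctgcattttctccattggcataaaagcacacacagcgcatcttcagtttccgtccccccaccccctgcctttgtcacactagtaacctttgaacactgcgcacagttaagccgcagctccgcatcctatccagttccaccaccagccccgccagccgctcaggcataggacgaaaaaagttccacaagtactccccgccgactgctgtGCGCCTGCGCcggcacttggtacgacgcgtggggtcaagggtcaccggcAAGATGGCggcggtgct
Ndufb7, chr8:83566508-83566807, plus strand: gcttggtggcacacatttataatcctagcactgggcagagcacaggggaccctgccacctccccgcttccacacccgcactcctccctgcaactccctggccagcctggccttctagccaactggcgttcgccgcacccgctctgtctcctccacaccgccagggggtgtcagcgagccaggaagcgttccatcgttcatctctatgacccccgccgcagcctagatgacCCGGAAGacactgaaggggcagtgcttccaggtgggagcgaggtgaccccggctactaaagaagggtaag
Ndufa7, chr17:33824322-33824621, plus strand: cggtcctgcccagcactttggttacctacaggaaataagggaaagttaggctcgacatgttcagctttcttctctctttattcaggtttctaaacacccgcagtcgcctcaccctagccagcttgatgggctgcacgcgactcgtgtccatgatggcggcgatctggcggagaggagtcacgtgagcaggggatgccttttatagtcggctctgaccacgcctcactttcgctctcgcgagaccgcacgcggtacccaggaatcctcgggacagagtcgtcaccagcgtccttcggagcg
The windows of Ndufs7, Ndufa9 and Ndufs6 each hold the YY1 letters just after the start, and that of Ndufs6 also holds the NRF1 letters, on the opposite strand. The YY1 letters contain ATG, and whether it is the start codon there was not tested. Those of Ndufb6 and Ndufb7 hold the ETS letters, 1 of them on a member that rose and the other on a member that fell, and that of Ndufa7 holds none of the 3. Among windows not shown, those of Ndufv2, Ndufa12 and Ndufc2, members called higher in all 3 knockout groups, also hold none of the 3. The windows of Ndufb10 and Ndufs8, called in no knockout group, hold the YY1 letters. Over all 31 member windows, the YY1 letters occurred in 11 (35.48%), against 6.228% of 27025 RefSeq promoter windows of the same length. The NRF1 letters occurred in 6 (19.35%, against 4.784%) and the ETS letters in 4 (12.9%, against 9.121%). The letters TNAAGGTCA of ESRRA occurred in 0 of the 31, against 1.258%. For general promoter letters the counts were 9 for CCAAT (29.03%, against 37.92%), 13 for GGGCGG (41.94%, against 35.91%) and 4 for TATAAA (12.9%, against 14.16%). The median GC content was 59.0% in member windows and 52.67% in all. A match describes letters only, since no binding was measured here.

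The targeted gene Men1 was at 9.25 to 9.45 on the wt arrays and 9.31 to 9.49 on the RIP-Cre arrays. It lay lower on the Men1flf RIP-Cre arrays (8.14 to 8.43) and on the double arrays (8.46 to 8.87), and higher on the Rbp2flf RIP-Cre arrays (10.05 to 10.24). Kdm5a was not called in any knockout group, and its Rbp2flf RIP-Cre arrays (8.95 to 9.18) overlapped the RIP-Cre arrays (9.09 to 9.37). Its double arrays (9.07 to 9.39) did so too. Whether its probe set covers the deleted part of the gene is not known here, so these values do not verify the loss of Rbp2. Ins2 (13.54 to 13.74 on all 17 arrays) and Gcg (13.14 to 13.82) were bright throughout, and the acinar gene Cpa1 ranged from 8.56 to 11.66.

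No difference in these genes was detected between RIP-Cre and wt islets. In RIP-Cre against wt, 0 of 35 members were called by limma at a Benjamini-Hochberg adjusted p under 0.05, beside 0.00% of all genes, and 0 had an unadjusted p under 0.05, beside 2.77% of all genes. The median member difference was -0.003 on the log2 scale, and the widest were -0.24 ± 0.27 (SE) for Ndufb6 and 0.12 ± 0.15 for Ndufb8. No member separated the 3 RIP-Cre from the 3 wt arrays in either direction, while 2.15% of all genes were above and 1.71% below on every array.

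Most members were higher in each knockout group than in RIP-Cre. In Men1flf RIP-Cre islets, 14 of 35 members rose and 2 fell, beside 15.7% of all genes called higher and 37.8% called lower. In Rbp2flf RIP-Cre islets 14 rose and 0 fell, beside 6.70% and 6.70% of all genes. In the double group 20 rose and 0 fell, beside 13.0% and 20.6%. The median log2 fold change of the members was 0.29, 0.33 and 0.35 in that order, while that of all genes was -0.23, -0.13 and -0.15. Every knockout array was above every RIP-Cre array for 23, 21 and 20 members, against 18.7%, 11.6% and 14.2% of all genes. Every knockout array was below for 2, 1 and 1 members, against 44.8%, 15.4% and 24.9%. In bulk islet RNA, more beta cells and more RNA per beta cell cannot be told apart. The overall level of the arrays also differed between the groups, as given below, and cannot be told apart from either.

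**Figure D1:**
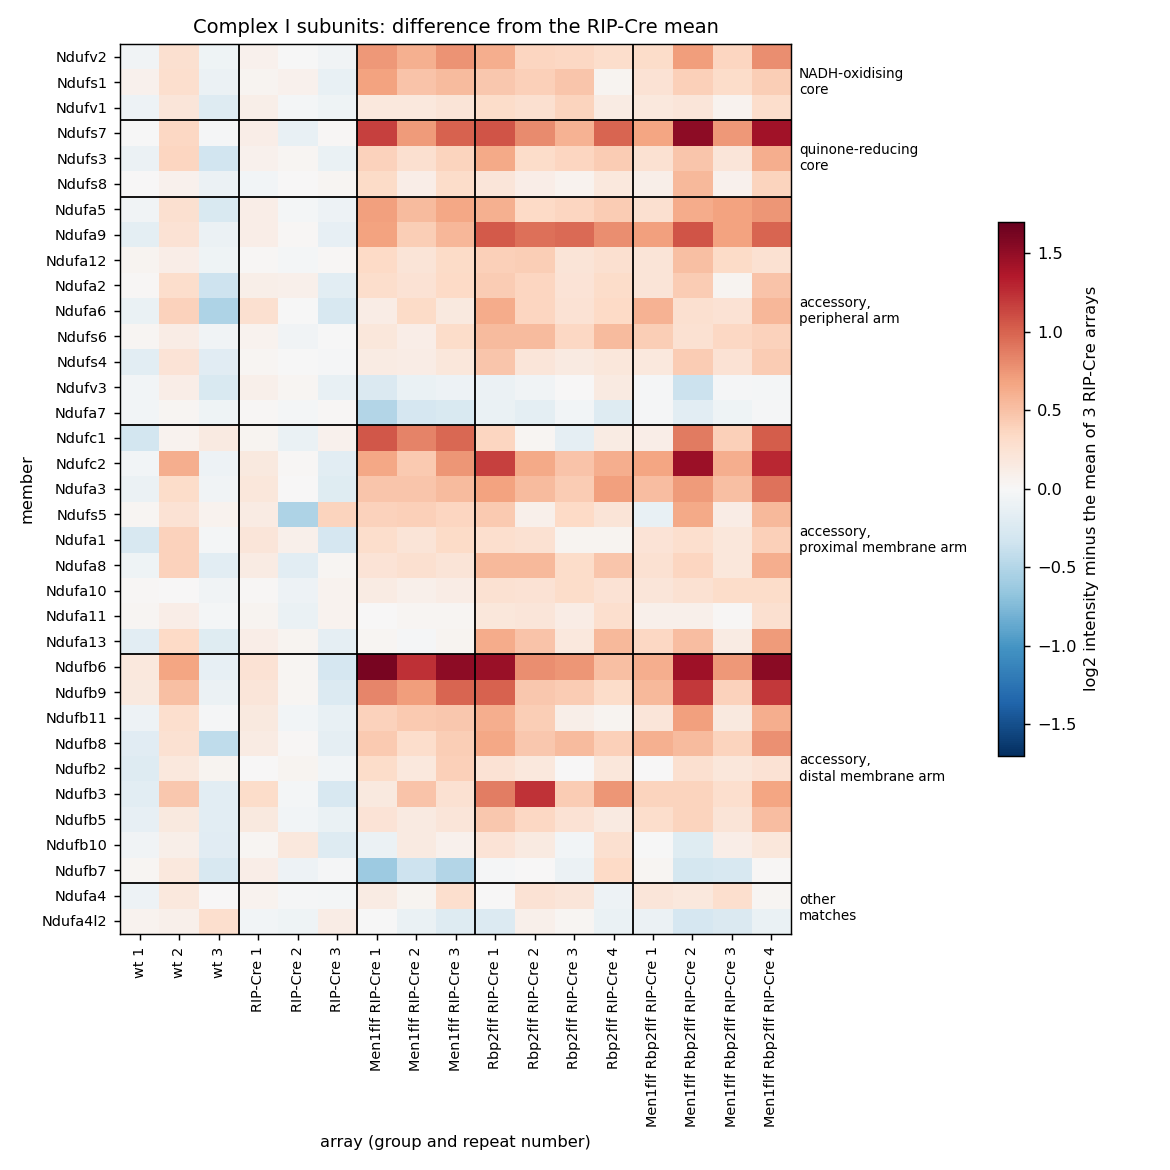
Log2 intensity of each of the 35 members on each of the 17 arrays, minus the mean of the 3 RIP-Cre arrays (colour scale, log2), with members ordered by their place in the complex. Ndufs7, Ndufa9 and Ndufb6 are among the deepest red rows across the knockout arrays, Ndufa7 and Ndufb7 are blue on the Men1flf RIP-Cre arrays, and wt array 2 is red for nearly the whole column.

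The brightness of a probe set bears on these counts. Of the 35 members, 22 lay in the brightest 25% of all genes (mean log2 intensity of 9.11 or more), and in the knockout groups bright genes as a class were called higher more often than dim ones. Among these bright genes, 33.7% were called higher and 16.6% lower in Men1flf RIP-Cre islets, and of the 22 bright members 8 (36.4%) were called higher, a share near the background, and 1 lower. In Rbp2flf RIP-Cre islets 11 of the 22 (50%) rose against 18.4% of bright genes, with 3.47% of bright genes lower, and in the double group 15 of the 22 (68.2%) rose against 31.1%, with 10.8% lower. Under cyclic loess the bright members called higher were 4 (18.2%), 5 (22.7%) and 8 (36.4%), against 24.7%, 10% and 20.6% of bright genes, so in Men1flf RIP-Cre islets their share was then below the background. The median of bright members was 0.22, 0.37 and 0.36 in the 3 comparisons, and that of all bright genes was 0.10, 0.10 and 0.11. In the brightest 10% of genes, the 10 members there had medians of 0.32, 0.36 and 0.40, against 0.20, 0.18 and 0.21 for all genes at that brightness. In the dimmest 10%, which holds no member, the median of all genes was -0.43, -0.27 and -0.30. Brightness of different probe sets does not order the genes by expression.

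**Figure D2:**
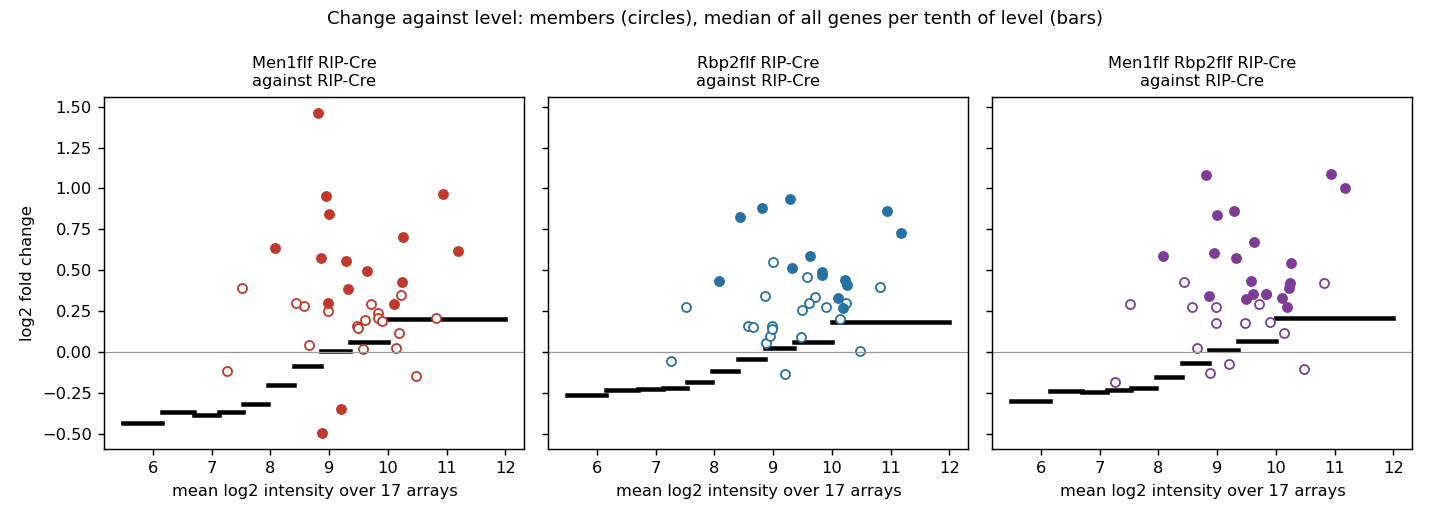
Log2 fold change against RIP-Cre (y) by mean log2 intensity over 17 arrays (x) for the 35 members (circles, filled where called by limma) in the 3 knockout groups, with the median of all genes in each of 10 bins of intensity as black bars. The bars climb from -0.43, -0.27 and -0.30 at the dim end to 0.20, 0.18 and 0.21 at the bright end, and most circles lie above the bar at their brightness.

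The overall level of the arrays moved with the groups. The median log2 intensity of the genes tested was 7.97 to 8.16 on RIP-Cre arrays, 7.99 to 8.10 on wt arrays, 7.86 to 7.87 on Men1flf RIP-Cre arrays, 7.82 to 7.98 on Rbp2flf RIP-Cre arrays and 7.88 to 7.95 on double arrays. Cyclic loess, which removes the trend with brightness, moved the median of all genes to -0.02, -0.01 and -0.01, and the members called higher then numbered 11, 8 and 13 with medians of 0.22, 0.23 and 0.27, beside 18.4%, 5.61% and 13.9% of all genes called higher and 16.0%, 3.81% and 11.4% called lower. Quantile normalization gave 10 members higher and 3 lower in Men1flf RIP-Cre islets, beside 16.9% and 18.1% of all genes. On the deposited values these members numbered 14 and 2. Over all genes in that comparison, loess turned 3126 higher and 7534 lower into 3677 and 3198. With the array median as a covariate in the fit, 0, 1 and 1 members were called higher, beside 1.06%, 0.160% and 0.863% of all genes higher and 0.923%, 0.0502% and 0.542% lower, and the member medians were 0.03, 0.17 and 0.16. In Men1flf RIP-Cre islets 14 of 35 members were then below 0, against 4 in the fit without it. The member called in both comparisons was Ndufa9. The covariate differs between the groups, so this fit takes out any group difference that runs with it.

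Wt array 2 stood apart from the other control arrays in these genes: all 35 members were above their RIP-Cre mean, with a median difference of 0.25. The other wt arrays had medians of -0.06 and -0.10, and the RIP-Cre arrays 0.09, -0.003 and -0.09. Men1flf RIP-Cre arrays had 0.30, 0.24 and 0.32, Rbp2flf RIP-Cre arrays 0.46, 0.35, 0.25 and 0.28, and double arrays 0.23, 0.43, 0.25 and 0.52. Each knockout array other than double array 1, double array 3 and Men1flf RIP-Cre array 2 thus had a member median of at least that of wt array 2. Its array median was 7.99, the lowest of the wt group, against 8.10 and 8.09. Double arrays 2 and 4 also had the lowest array medians of their group (7.90 and 7.88) and Rbp2flf RIP-Cre array 1 that of its own (7.82). The RIP-Cre group differed: array 2 had its lowest array median (7.97), but array 1, with 8.03, had the higher member median.

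**Figure D3:**
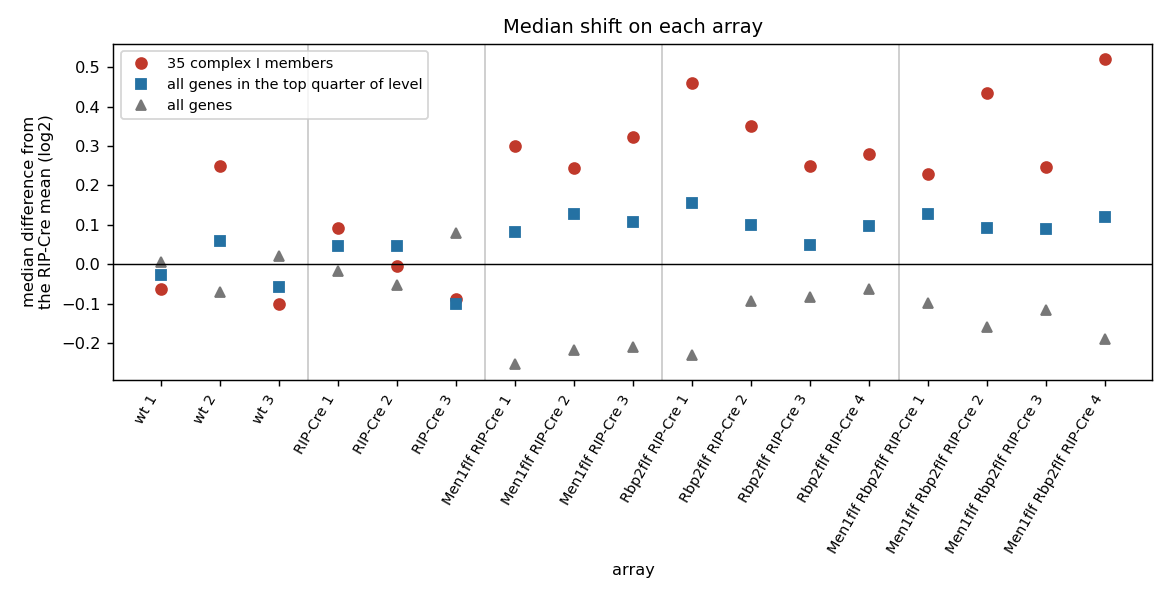
Median difference from the mean of the 3 RIP-Cre arrays (y, log2) on each of the 17 arrays (x) for the 35 members (red circles), all genes in the brightest 25% (blue squares) and all genes (grey triangles). Members lie at 0.23 to 0.52 on every knockout array and at 0.25 on wt array 2, while the median of all genes is below 0 on all knockout arrays.

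The NADH-oxidising core, where electrons enter, had 3 members, of which 2 rose in Men1flf RIP-Cre islets, 1 in Rbp2flf RIP-Cre islets and 2 in the double group. Beside this and the module counts below, 15.7%, 6.70% and 13.0% of all genes were called higher in that order. Among the brightest 25% of genes the shares were 33.7%, 18.4% and 31.1%. Differences between modules of so few members were not tested. Ndufv2, an iron-sulfur subunit of the NADH-oxidising module, was called in all 3 knockout groups. Its level was 9.97, 9.90 and 9.84 on the RIP-Cre arrays and 9.84, 10.18 and 9.83 on the wt arrays. It was 10.64, 10.51 and 10.67 on the Men1flf RIP-Cre arrays and 10.52, 10.27, 10.26 and 10.20 on the Rbp2flf RIP-Cre arrays. The double arrays read 10.22, 10.61, 10.27 and 10.70, so all 11 knockout arrays lay above all control arrays, with double arrays 2 and 4 on the level of the Men1flf RIP-Cre group. On the log2 scale Ndufv2 rose by 0.70 ± 0.13 (SE, adjusted p = 0.00123), 0.41 ± 0.13 (adjusted p = 0.0434) and 0.55 ± 0.13 (adjusted p = 0.0066) in limma. The Rbp2flf RIP-Cre call of Ndufv2 was lost in 8 of 17 fits that leave out 1 array, with an adjusted p of 0.167 without RIP-Cre array 3. Ndufs1, the largest core subunit and a carrier of several iron-sulfur clusters, was at 8.63, 8.65 and 8.46 on RIP-Cre arrays and 8.65, 8.86 and 8.48 on wt arrays. Its Men1flf RIP-Cre arrays read 9.27, 9.07 and 9.12, above every control array. On the Rbp2flf RIP-Cre arrays it was 9.04, 8.99, 9.05 and 8.62, where the last array fell among the controls, and on the double arrays 8.83, 8.98, 8.89 and 9, above the RIP-Cre but not all wt arrays. It rose by 0.57 ± 0.12 (adjusted p = 0.00225) in Men1flf RIP-Cre and by 0.34 ± 0.11 (adjusted p = 0.031) in double islets, and the Rbp2flf RIP-Cre difference of 0.34 ± 0.11 missed the threshold (adjusted p = 0.0529). Without RIP-Cre array 3 the double call of Ndufs1 was lost (adjusted p = 0.14). Ndufv1, which binds NADH and the flavin, differed by 0.19, 0.28 and 0.18, none called.

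The quinone-reducing core, which hands electrons to ubiquinone, also had 3 members measured, with 1, 2 and 2 called higher. Ndufs7, the subunit with the last iron-sulfur cluster before ubiquinone, was among the most raised members in every knockout group. Its RIP-Cre arrays read 10.39, 10.16 and 10.30 and its wt arrays 10.28, 10.64 and 10.26. The Men1flf RIP-Cre arrays read 11.45, 11.01 and 11.29 and the Rbp2flf RIP-Cre arrays 11.35, 11.09, 10.88 and 11.27. The double arrays read 10.95, 11.80, 11.02 and 11.71, and the lowest knockout array, 10.88, was above the highest control array, 10.64. Ndufs7 rose 1.95-fold in Men1flf RIP-Cre (log2 0.97 ± 0.21, adjusted p = 0.0023), 1.82-fold in Rbp2flf RIP-Cre (0.86 ± 0.19, adjusted p = 0.0178) and 2.12-fold in double islets (1.09 ± 0.19, adjusted p = 0.00231). Leaving out RIP-Cre array 3 ended the Rbp2flf RIP-Cre call (adjusted p = 0.071). Ndufs3 rose by 0.44 ± 0.14 in Rbp2flf RIP-Cre (adjusted p = 0.0492) and 0.39 ± 0.14 in double islets (adjusted p = 0.0433), and its Men1flf RIP-Cre difference was 0.35 (adjusted p = 0.059). Ndufs8, the other iron-sulfur subunit here, differed by 0.25, 0.14 and 0.27, none called.

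Of the 9 accessory subunits of the peripheral arm, 3 rose and 1 fell in Men1flf RIP-Cre islets, 4 rose in Rbp2flf RIP-Cre islets and 5 in the double group. Ndufa9, which binds NADPH near the junction of the arms, had 8.88, 8.78 and 8.63 on the RIP-Cre arrays and 8.6, 9.01 and 8.66 on the wt arrays. Its Men1flf RIP-Cre arrays read 9.45, 9.18 and 9.33. The Rbp2flf RIP-Cre arrays read 9.81, 9.70, 9.73 and 9.56, all above the Men1flf RIP-Cre arrays, and the double arrays 9.46, 9.83, 9.45 and 9.75. Ndufa9 rose by 0.56 ± 0.13 (adjusted p = 0.00377), 0.94 ± 0.12 (adjusted p = 0.00164) and 0.86 ± 0.12 (adjusted p = 0.000696), that is 1.47-fold, 1.91-fold and 1.81-fold. In Rbp2flf RIP-Cre and double islets it was called under every setting tried and with any array left out, and with the array median as a covariate it rose by 0.73 (adjusted p = 0.0193) and 0.63 (adjusted p = 0.0244). In Men1flf RIP-Cre islets that setting gave 0.24 (adjusted p = 0.464).

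Ndufs6, a zinc-binding accessory subunit, was at 9.64, 9.53 and 9.58 on the RIP-Cre arrays and 9.61, 9.71 and 9.53 on the wt arrays. It read 9.77, 9.70 and 9.90 on the Men1flf RIP-Cre arrays and 10.12, 10.12, 9.93 and 10.12 on the Rbp2flf RIP-Cre arrays. The double arrays read 10, 9.84, 9.94 and 9.97, overlapping both single knockouts and above all controls. The rise was 0.49 ± 0.08 (adjusted p = 0.00708) in Rbp2flf RIP-Cre and 0.35 ± 0.08 (adjusted p = 0.00698) in double islets, and the Men1flf RIP-Cre difference was 0.21 ± 0.09 (adjusted p = 0.0573). Ndufa7 went the other way in Men1flf RIP-Cre islets. Its RIP-Cre arrays read 9.34, 9.29 and 9.34 and its wt arrays 9.28, 9.36 and 9.25. Its Men1flf RIP-Cre arrays read 8.82, 9.04 and 9.06, below every other array. The Rbp2flf RIP-Cre arrays read 9.21, 9.16, 9.28 and 9.10 and the double arrays 9.31, 9.14, 9.25 and 9.30. Ndufa7 fell by 0.35 ± 0.09 (adjusted p = 0.00501) in Men1flf RIP-Cre islets, and the fall was 0.37 under cyclic loess (adjusted p = 0.00287). With the array median as a covariate the difference was -0.36 and not called (adjusted p = 0.132). Its values were -0.14 in Rbp2flf RIP-Cre and -0.07 in double islets, neither called.

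Ndufv3, a small accessory subunit of the NADH-oxidising module, was at 10.62, 10.57 and 10.41 on the RIP-Cre arrays and 10.49, 10.65 and 10.27 on the wt arrays. On the Men1flf RIP-Cre arrays it was 10.29, 10.42 and 10.45, and on the Rbp2flf RIP-Cre arrays 10.44, 10.48, 10.54 and 10.69. The double arrays read 10.52, 10.17, 10.52 and 10.50, and all knockout groups overlapped the controls. Its differences from RIP-Cre of -0.15, 0.00 and -0.11 were not called, but under cyclic loess it was called lower in Men1flf RIP-Cre (-0.35, adjusted p = 0.0201) and double islets (-0.30, adjusted p = 0.0376). Ndufa5 rose in all 3 groups by 0.63, 0.43 and 0.59, and Ndufa12, next to the iron-sulfur chain, by 0.30, 0.33 and 0.33. Ndufs4, a subunit whose loss causes Leigh syndrome, rose by 0.32 ± 0.11 (adjusted p = 0.0334) in double islets, with uncalled differences of 0.15 and 0.25 in the single knockouts. Ndufa2 (0.29, 0.34 and 0.30) and Ndufa6, which binds the mitochondrial acyl carrier protein (0.21, 0.40 and 0.42), were not called.

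Of the 9 accessory subunits around the proximal membrane arm, 3 rose in Men1flf RIP-Cre, 4 in Rbp2flf RIP-Cre and 6 in double islets. Ndufc1, a small membrane subunit, separated the single knockouts. Its RIP-Cre arrays read 8.67, 8.51 and 8.70 and its wt arrays 8.32, 8.69 and 8.78. It was at 9.68, 9.47 and 9.60 on the Men1flf RIP-Cre arrays, above every control, and at 8.99, 8.66, 8.48 and 8.76 on the Rbp2flf RIP-Cre arrays, which overlapped them. The double arrays split into 8.74 and 9.03 on arrays 1 and 3 and 9.51 and 9.65 on arrays 2 and 4. Ndufc1 rose by 0.96 ± 0.20 (adjusted p = 0.00176) in Men1flf RIP-Cre and by 0.61 ± 0.18 (adjusted p = 0.0213) in double islets, against 0.10 ± 0.18 (adjusted p = 0.703) in Rbp2flf RIP-Cre. Without double array 4 the double call was lost (adjusted p = 0.07). The difference of Ndufc1 between double and Rbp2flf RIP-Cre islets, 0.51 ± 0.17, did not pass the threshold (adjusted p = 0.184). A second probe set of Ndufc1 read 0.65 in Rbp2flf RIP-Cre islets (adjusted p = 0.105 over all probe sets).

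Ndufc2, a membrane subunit named with Ndufc1, was at 10.80, 10.66 and 10.46 on the RIP-Cre arrays and 10.59, 11.26 and 10.56 on the wt arrays. Its Men1flf RIP-Cre arrays read 11.30, 11.08 and 11.39, and its Rbp2flf RIP-Cre arrays 11.80, 11.29, 11.12 and 11.26. The double arrays read 11.31, 12.09, 11.26 and 11.92, so every knockout array exceeded the RIP-Cre arrays, while wt array 2 lay within the Men1flf RIP-Cre and Rbp2flf RIP-Cre ranges. Ndufc2 rose by 0.62 ± 0.23 (adjusted p = 0.0352), 0.73 ± 0.22 (adjusted p = 0.0404) and 1.00 ± 0.22 (adjusted p = 0.00502). Under the array median covariate the Men1flf RIP-Cre value was -0.10, not called. Without RIP-Cre array 3 the adjusted p of Ndufc2 was 0.127 in Men1flf RIP-Cre and 0.174 in Rbp2flf RIP-Cre islets. Ndufa3 rose by 0.49, 0.59 and 0.67. Ndufa8 rose by 0.47 in Rbp2flf RIP-Cre and 0.36 in double islets and Ndufa10 by 0.27 in both. Ndufa13, also known as GRIM-19, rose by 0.43 ± 0.15 in double islets (adjusted p = 0.0365) and was at 0.46 in Rbp2flf RIP-Cre (adjusted p = 0.0515) and 0.02 in Men1flf RIP-Cre islets (adjusted p = 0.934). Its double arrays, 9.71, 9.89, 9.50 and 10.08, were all above its Men1flf RIP-Cre arrays, 9.39, 9.34 and 9.40. Ndufa1 differed by 0.28, 0.16 and 0.28 and Ndufs5 by 0.39, 0.28 and 0.29, none called. The 2 probe sets of Ndufa11 disagreed in sign in Men1flf RIP-Cre islets. The one used read 10.11, 9.95 and 10.12 on the RIP-Cre arrays and 10.07, 10.09 and 10.09 on the Men1flf RIP-Cre arrays, and the other 9.86, 9.95 and 10.07 and 9.72, 9.85 and 9.96. On the wt arrays they read 10.09, 10.17 and 10.03 and 9.92, 10.12 and 9.78. On the Rbp2flf RIP-Cre arrays they read 10.25, 10.26, 10.19 and 10.34 and 10.18, 10.08, 10.05 and 10.02, and on the double arrays 10.14, 10.15, 10.08 and 10.33 and 10.07, 9.89, 9.74 and 10.15. The probe set used was above every control array in Rbp2flf RIP-Cre islets, and the other overlapped the controls in every knockout group. The differences from RIP-Cre were 0.02, 0.20 and 0.12 for the probe set used and -0.12, 0.12 and 0.00 for the other, none called.

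Of the 9 accessory subunits of the distal membrane arm, 5 rose and 1 fell in Men1flf RIP-Cre islets, 3 rose in Rbp2flf RIP-Cre and 5 in double islets. Among bright genes, 33.7%, 18.4% and 31.1% were called higher, and no difference between this arm and the other modules was tested. Ndufb6, a membrane-spanning subunit, had the widest increase of any member. It was at 8.30, 8.09 and 7.77 on the RIP-Cre arrays and 8.23, 8.73 and 7.92 on the wt arrays. It was at 9.67, 9.30 and 9.58 on the Men1flf RIP-Cre arrays, where all exceeded all controls. The Rbp2flf RIP-Cre arrays read 9.52, 8.85, 8.80 and 8.56 and the double arrays 8.67, 9.49, 8.79 and 9.59, so that wt array 2 (8.73) overlapped the lowest of both. Ndufb6 rose 2.76-fold (1.46 ± 0.27, adjusted p = 0.00108), 1.84-fold (0.88 ± 0.26, adjusted p = 0.0373) and 2.12-fold (1.08 ± 0.26, adjusted p = 0.00746). Its Rbp2flf RIP-Cre call was lost with wt as the control, and without RIP-Cre array 3 (adjusted p = 0.175).

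Ndufb9, which like Ndufa6 binds acyl carrier protein, was at 8.70, 8.52 and 8.26 on the RIP-Cre arrays and 8.66, 9.01 and 8.40 on the wt arrays. It read 9.33, 9.21 and 9.48 on the Men1flf RIP-Cre arrays, 9.49, 8.95, 8.92 and 8.81 on the Rbp2flf RIP-Cre arrays and 9.04, 9.70, 8.89 and 9.69 on the double arrays. All knockout arrays were above the RIP-Cre arrays, and only wt array 2 reached into the range of the Rbp2flf RIP-Cre and double groups. It rose by 0.85 ± 0.23 (adjusted p = 0.00705) in Men1flf RIP-Cre and 0.84 ± 0.21 (adjusted p = 0.0099) in double islets, with 0.55 ± 0.21 (adjusted p = 0.0783) in Rbp2flf RIP-Cre. Without RIP-Cre array 3 the double call of Ndufb9 was lost (adjusted p = 0.0582). Ndufb3, another membrane-spanning subunit, passed the threshold in Rbp2flf RIP-Cre islets and missed it in the other knockout groups. Its RIP-Cre arrays read 8.39, 8.04 and 7.80 and its wt arrays 7.90, 8.53 and 7.90. The Men1flf RIP-Cre arrays read 8.24, 8.56 and 8.33 and the double arrays 8.46, 8.46, 8.36 and 8.75, both overlapping the controls. The Rbp2flf RIP-Cre arrays read 8.95, 9.31, 8.51 and 8.83, above every RIP-Cre array. The rise was 0.82 ± 0.19 (adjusted p = 0.0197), against 0.30 ± 0.20 (adjusted p = 0.213) in Men1flf RIP-Cre and 0.43 ± 0.19 (adjusted p = 0.085) in double islets. Without RIP-Cre array 3 the Ndufb3 call was lost (adjusted p = 0.107).

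Ndufb8 was at 9.16, 9.05 and 8.87 on the RIP-Cre arrays and 8.83, 9.29 and 8.59 on the wt arrays. Its levels were 9.47, 9.32 and 9.44 on the Men1flf RIP-Cre arrays, 9.69, 9.49, 9.56 and 9.43 on the Rbp2flf RIP-Cre arrays and 9.63, 9.57, 9.40 and 9.80 on the double arrays. Every knockout array was above every control, and Ndufb8 rose by 0.38 ± 0.15 (adjusted p = 0.0381), 0.52 ± 0.14 (adjusted p = 0.0291) and 0.57 ± 0.14 (adjusted p = 0.00817). Without RIP-Cre array 3 the Men1flf RIP-Cre and Rbp2flf RIP-Cre calls of Ndufb8 were lost (adjusted p = 0.15 and 0.14). Ndufb7, which faces the intermembrane space, fell in Men1flf RIP-Cre islets. It was at 9.09, 8.90 and 8.96 on the RIP-Cre arrays, at 9.02, 9.16 and 8.71 on the wt arrays, and at 8.36, 8.63 and 8.48 on the Men1flf RIP-Cre arrays. The Rbp2flf RIP-Cre arrays read 8.96, 8.99, 8.89 and 9.32 and the double arrays 9.01, 8.69, 8.71 and 9. The Men1flf RIP-Cre arrays were below all 14 others. The fall was 0.49 ± 0.14 on the log2 scale (adjusted p = 0.00909) and 0.46 under cyclic loess (adjusted p = 0.0156), with 0.06 and -0.13 in the other knockout groups. With the array median as a covariate it was -0.52 and not called (adjusted p = 0.207). Ndufb11 rose in Men1flf RIP-Cre (0.43) and double islets (0.42), Ndufb2 in Men1flf RIP-Cre (0.30, against 0.16 and 0.18 not called) and Ndufb5 in double islets (0.35, against 0.19 and 0.30 not called). Ndufb10 differed by 0.04, 0.15 and 0.03, none called.

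**Figure D4:**
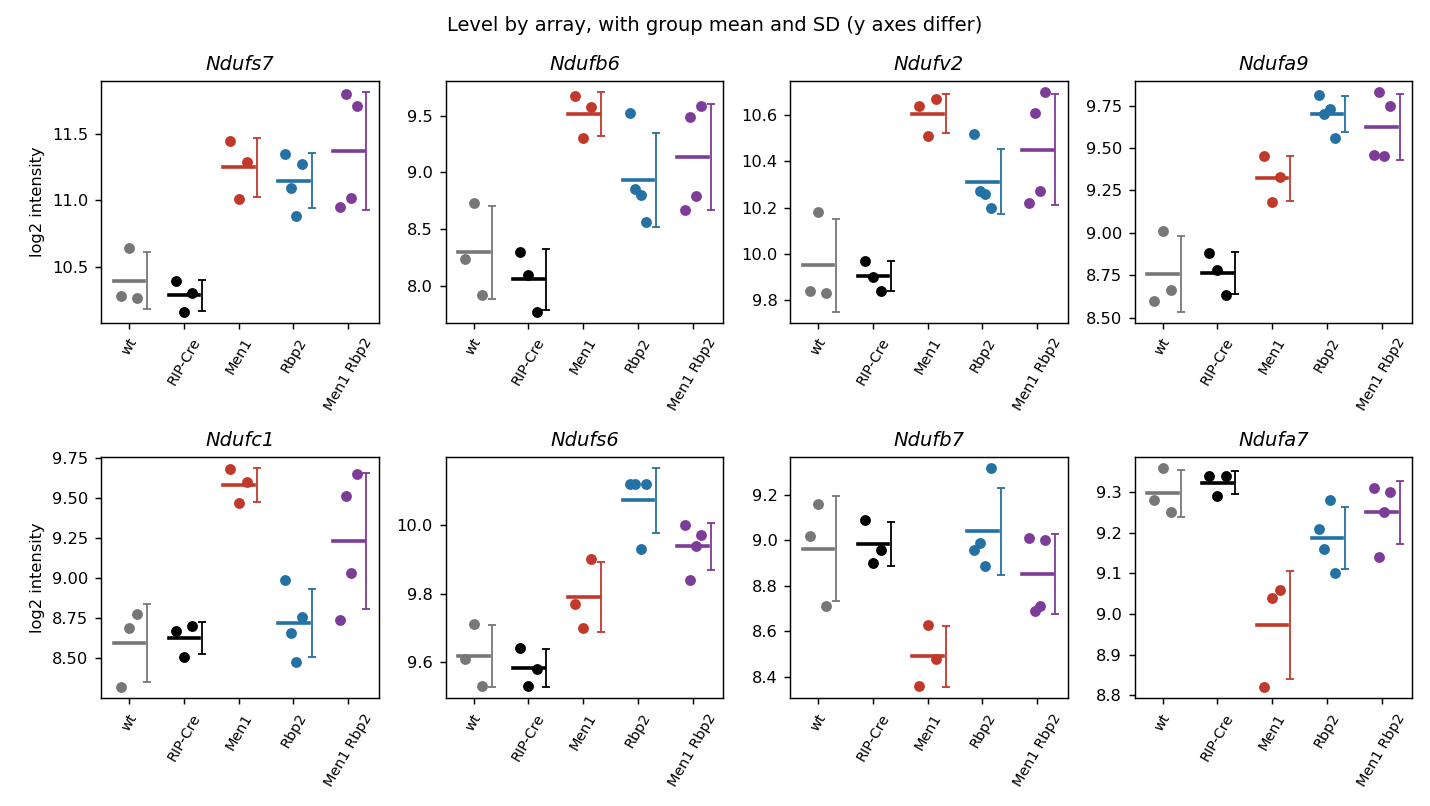
Log2 intensity (y) of 8 members on each array (points) in the 5 groups (x, where Men1, Rbp2 and Men1 Rbp2 stand for the knockout groups), with the group mean as a horizontal line and the SD as the bar beside it; y axes differ between panels. Ndufs7 on the knockout arrays starts at 10.88, above the highest control array at 10.64, Ndufc1 separates the Men1flf RIP-Cre from the Rbp2flf RIP-Cre arrays, and Ndufb7 and Ndufa7 are low on the 3 Men1flf RIP-Cre arrays.

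The 2 genes outside the complex gave small differences. Ndufa4l2, known as a gene induced by hypoxia, was at 7.27, 7.25 and 7.44 on the RIP-Cre arrays and 7.38, 7.40 and 7.61 on the wt arrays. It read 7.31, 7.21 and 7.10 on the Men1flf RIP-Cre arrays, 7.09, 7.40, 7.35 and 7.21 on the Rbp2flf RIP-Cre arrays and 7.22, 7.03, 7.08 and 7.21 on the double arrays. Only the double arrays were all below the RIP-Cre arrays. The differences were -0.11, -0.06 and -0.18 with adjusted p of 0.36, 0.669 and 0.142, and those of Ndufa4 were 0.16, 0.09 and 0.18, none called. Without these 2 genes the counts of 14, 14 and 20 members called higher were the same, of 33.

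Across the 3 comparisons with RIP-Cre, which share their control arrays, 22 members rose in at least 1, and 9 rose in all: Ndufv2, Ndufs7, Ndufa5, Ndufa9, Ndufa12, Ndufc2, Ndufa3, Ndufb6 and Ndufb8. How many of all genes rose in at least 1 or in all was not counted. Whether 22 and 9 are unusual numbers is therefore not known. The 11 called in none, in either direction, were Ndufv1, Ndufs8, Ndufa2, Ndufa6, Ndufv3, Ndufs5, Ndufa1, Ndufa11, Ndufb10, Ndufa4 and Ndufa4l2. Every module of the complex held members that rose in at least 1 comparison and members called in none. Of the 50 calls, 24 were kept with any 1 array left out; the same share among the calls of all genes was not counted. In Men1flf RIP-Cre islets these were Ndufv2, Ndufs1, Ndufs7, Ndufa5, Ndufa7, Ndufa9, Ndufc1, Ndufa3, Ndufb6, Ndufb7 and Ndufb9, in Rbp2flf RIP-Cre islets Ndufa9 and Ndufs6, and in double islets Ndufv2, Ndufs7, Ndufa5, Ndufa9, Ndufa12, Ndufs6, Ndufa3, Ndufa10, Ndufc2, Ndufb6 and Ndufb8. The least often kept was Ndufs3 in Rbp2flf RIP-Cre islets, called in 3 of 17 such fits, and in double islets Ndufa8 and Ndufb11 were called in 7 and Ndufs3 in 8 of 17. Under every setting, 2 calls were kept, those of Ndufa9 in Rbp2flf RIP-Cre and double islets. RIP-Cre array 3, whose median of 8.16 was the highest of all arrays, moved the counts most: without it the members called higher were 2 in Rbp2flf RIP-Cre and 11 in double islets, and the share of all genes called higher also went down, from 6.70% to 0.622% and from 13.0% to 6.30%. The Rbp2flf RIP-Cre count was also 7 without RIP-Cre array 2 (6.09% of all genes), 3 without Rbp2flf RIP-Cre array 1 (1.25%) and 5 without Rbp2flf RIP-Cre array 2 (2.84%). The double count was 13 without double array 2 (9.04%) and 12 without double array 4 (8.67%), and the Men1flf RIP-Cre count was 9 without Men1flf RIP-Cre array 1 (13.0%).

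**Figure D5:**
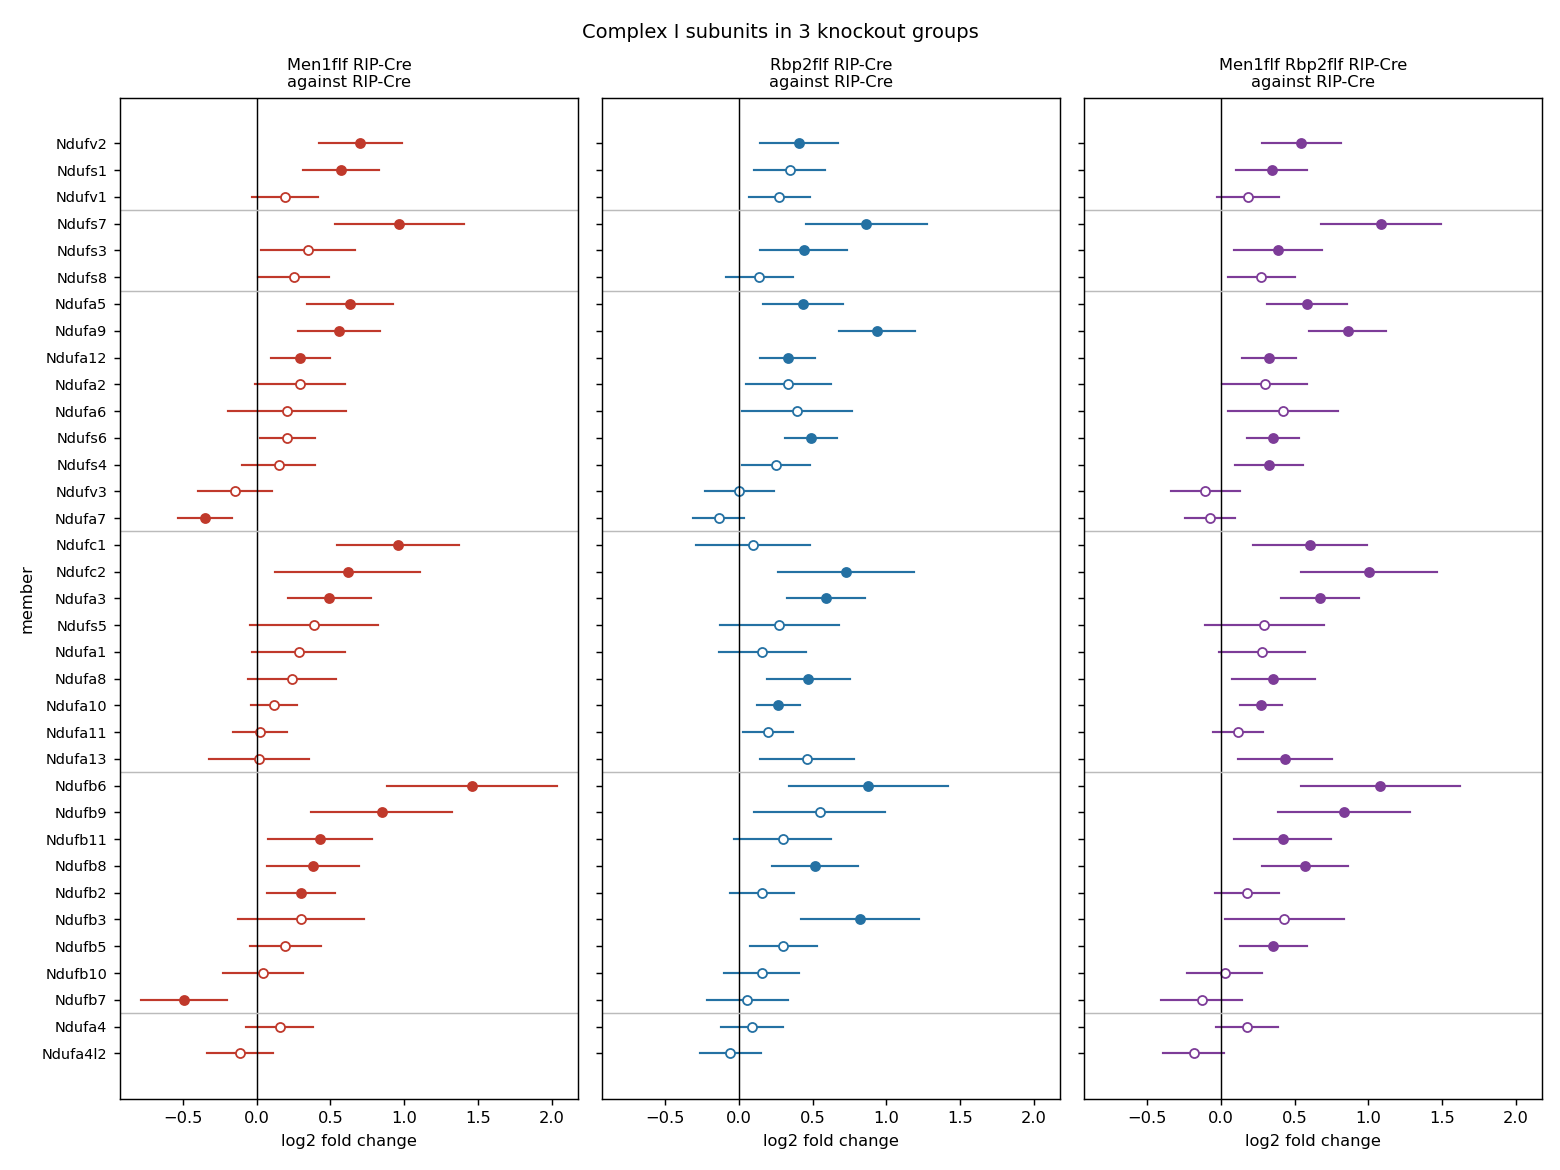
Log2 fold change (x) of each member (y, ordered by place in the complex) against RIP-Cre in the 3 knockout groups, with 95% confidence intervals as lines and filled circles where limma called the member. Filled circles number 16, 14 and 20, of which Ndufa7 and Ndufb7 in the left panel lie below 0.

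No member was called between the double group and either single knockout. Against Men1flf RIP-Cre, limma called 0 members, beside 1.10% of all genes higher and 0.567% lower. At an unadjusted p under 0.05 there were 5 members (14.3%), beside 14.4% of all genes. The median difference was 0.04, and the double arrays were all above the Men1flf RIP-Cre arrays for 4 members and all below for 1, against 14.3% and 6.15% of all genes. The 4 were Ndufa10, Ndufa13, Ndufa7 and Ndufb7. Both members that fell in Men1flf RIP-Cre islets are among them: Ndufa7 was 0.28 ± 0.08 higher in double islets (95% interval 0.10 to 0.45, adjusted p = 0.116) and Ndufb7 0.36 ± 0.13 (0.09 to 0.64, adjusted p = 0.208). Their low Men1flf RIP-Cre arrays are the reference here, so members picked for that fall tend to read higher in double islets. With the array median as a covariate, Ndufa13 was called higher in double islets (0.55, adjusted p = 0.027), beside 1.39% of all genes higher and 0.888% lower. At the low end, Ndufs1 differed by -0.23 ± 0.11 (adjusted p = 0.374) and Ndufc1 by -0.35 ± 0.18 (adjusted p = 0.395). Against Rbp2flf RIP-Cre, limma called 0 members, beside 0.582% and 0.617% of all genes, and 2 (5.71%) had an unadjusted p under 0.05, beside 11.6% of all genes. Here the median was 0.02, and no member separated the groups, against 3.39% above and 3.73% below among all genes. The widest were Ndufc1 at 0.51 (95% interval 0.15 to 0.87) and Ndufb3 at -0.39 (-0.76 to -0.02). Ndufb9 differed by 0.29 ± 0.20 and Ndufs6 by -0.14 ± 0.08. These intervals leave room for differences in both directions in most members, so a missed threshold does not show equal levels.

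The interaction asks whether the Rbp2flf effect in Men1flf RIP-Cre islets differs from that in RIP-Cre islets; a negative value means a joint change smaller than the sum of the single changes on the log2 scale. It was negative for 32 of 35 members, with a median of -0.31, while the median of all genes was 0.20 and that of bright genes -0.10. This contrast depended on the scaling: under cyclic loess 28 members were negative with a median of -0.24, against 0.01 for all genes and 0.01 for bright genes, and with the array median as a covariate 20 were, with a median of -0.08, against 0.02 and 0.01. The shares of all genes and of bright genes with a negative value are not given here. RIP-Cre arrays enter with a plus sign and both single knockout groups with a minus sign. Values that make a member high in both single knockouts thus also push its interaction below 0. At an adjusted p under 0.05, 0 members were called, beside 1.78% of all genes called higher and 1.61% lower. At an unadjusted p under 0.05 there were 11 members (31.4%), fewer in proportion than the 36.7% of all genes. The nearest were Ndufa9 (-0.63 ± 0.17, adjusted p = 0.0515), Ndufa7 (0.41 ± 0.11, adjusted p = 0.0524), Ndufs1 (-0.57 ± 0.16, adjusted p = 0.0529) and Ndufb6 (-1.26 ± 0.36, adjusted p = 0.0536). These sit just past the threshold, and several alternatives put 1 to 4 of the members on its other side. Ndufb7 had an interaction of 0.31 ± 0.18 (adjusted p = 0.22), so the positive values belong to both members that fell in Men1flf RIP-Cre islets and to Ndufv3 (0.04). The Men1flf RIP-Cre arrays enter with a minus sign, so a member picked for low values there tends to read positive.

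Other genes of the respiratory chain were counted in the same comparisons, beside the shares of all genes given above. Among the brightest 25% of genes, 33.7%, 18.4% and 31.1% were called higher. Counts under cyclic loess or with the array median as a covariate were not made for these lists. Of 46 nuclear-encoded subunits of complexes II to V, 24 rose and 6 fell in Men1flf RIP-Cre islets, 20 rose and 0 fell in Rbp2flf RIP-Cre islets, and 26 rose and 1 fell in double islets, with medians of 0.39, 0.39 and 0.51. Complex I assembly factors and the carrier protein Ndufab1 gave 4 higher and 1 lower of 18, then 0 and 0, then 3 and 1, with medians of 0.03, -0.04 and 0.01. Among them Dmac1, needed for the distal membrane arm, rose by 0.60 ± 0.10 and 0.42 ± 0.09 in Men1flf RIP-Cre and double islets, and Timmdc1, a membrane arm assembly factor, by 0.50 ± 0.14 and 0.64 ± 0.13. Ndufaf1 rose by 0.39 in Men1flf RIP-Cre islets, Ecsit fell there by 0.23, and Ndufaf5 fell by 0.32 in double islets. Regulators of mitochondrial gene expression moved both ways: 4 rose and 4 fell of 12 in Men1flf RIP-Cre, 2 and 1 in Rbp2flf RIP-Cre, and 3 and 2 in double islets. Tfam, which packages and transcribes mitochondrial DNA, rose by 0.92 ± 0.16 in Men1flf RIP-Cre and 0.59 ± 0.15 in double islets, and the coactivator Ppargc1a by 0.49 ± 0.12 in Rbp2flf RIP-Cre islets. Polrmt, the mitochondrial RNA polymerase, fell by 0.40, 0.32 and 0.34.

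Of 14 genes that supply or carry NADH equivalents, 9, 9 and 10 rose and 0 fell. Pdha1 of pyruvate dehydrogenase rose by 0.71, 0.58 and 0.69, the aspartate-glutamate carrier Slc25a12 by 0.59, 0.34 and 0.35, and Idh3b of the citrate cycle by 0.57 in double islets. Of 8 genes for other routes of electrons to ubiquinone, 4, 3 and 3 rose and 0 fell, Sdhc of complex II by 0.65, 0.66 and 0.81. Of 9 genes taken for mitochondrial mass, 7, 4 and 7 rose and 0 fell, with medians of 0.52, 0.42 and 0.43. On the RIP-Cre arrays these 9 genes had a mean level of 9.41 to 9.64 and the 14 NADH genes 9.60 to 9.74. Both lie above 9.11, where the brightest 25% of genes begin, and a rise beyond that class was not tested. The outer-membrane channel Vdac2 rose by 1.13, 0.60 and 0.82 and the import receptor Tomm20 by 0.69, 0.72 and 0.76.

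Cell type markers were counted in the 3 comparisons with RIP-Cre. Over all genes 15.7%, 6.70% and 13.0% were called higher there, and 37.8%, 6.70% and 20.6% lower. Dim genes fell as a class. In the bins of intensity that start at 6.71 and 7.13, all genes had medians of -0.39 and -0.37 in Men1flf RIP-Cre islets. On the RIP-Cre arrays the adipocyte genes lay at 6.87 to 7.27 and the muscle genes at 7.33 to 7.76. Bright genes were called higher more often, with 33.7%, 18.4% and 31.1% of the brightest 25%. The mean level of the beta cell genes lies in that brightness range. Of 8 beta cell genes, 5, 2 and 5 rose and 0 fell, and their mean level was 11.54 to 12.09 on RIP-Cre arrays, 11.73 to 12.11 on wt arrays, 12.35 to 12.43 on Men1flf RIP-Cre arrays, 12.15 to 12.30 on Rbp2flf RIP-Cre arrays and 12.17 to 12.35 on double arrays. G6pc2, an islet glucose-6-phosphatase, rose by 1.35, 0.91 and 1.16. Of 4 alpha cell genes, 2 fell in Men1flf RIP-Cre islets, 1 rose in Rbp2flf RIP-Cre islets, and 1 rose and 2 fell in double islets. Lower calls were also found in Men1flf RIP-Cre islets for 2 of 4 duct, 2 of 2 Schwann cell, 3 of 4 adipocyte, 2 of 3 muscle and 1 of 6 acinar genes, with 1 of 4, 0 of 2, 1 of 4, 0 of 3 and 0 of 6 in Rbp2flf RIP-Cre and 1 of 4, 2 of 2, 1 of 4, 1 of 3 and 0 of 6 in double islets. Delta and PP cell genes gave 1 lower of 3 in Men1flf RIP-Cre and double islets. Endothelial genes gave 1 higher and 2 lower of 5, then 2 and 0, then 1 and 2. Macrophage genes gave 1 higher of 5 in Men1flf RIP-Cre and double islets, lymphocyte genes 1 higher and 1 lower of 3 and then, in double islets, 1 higher, and mesenchymal genes 0 of 5 throughout. The mean level of the alpha cell genes was 10.40 to 11.02 on RIP-Cre and 10.02 to 10.16 on Men1flf RIP-Cre arrays, that of the duct genes 8.14 to 8.53 and 7.86 to 7.94, and that of the Schwann cell genes 7.41 to 8.02 and 6.71 to 6.77. Acinar genes spanned 8.31 to 10.77 over the RIP-Cre arrays alone. The part of these cell types in the members' differences was not tested.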

How the data were processed

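Biotin-labelled whole-transcript arrays of islet total RNA were deposited as 1 table of 35512 probe sets on 17 arrays, as log2 intensity with 2 decimals. How the authors corrected and normalized the deposited intensities, and with what software, is not given in the sources used here, and precision is limited by the 3 or 4 arrays of a group. Of the probe sets, 21789 name 1 gene, 1621 several and 12102 none in the platform annotation used here. Symbols were updated through Entrez identifiers to the RefSeq table of GRCm38.p6 (21698 found). Where a gene had several probe sets, the one with the highest mean over 17 arrays stood for it, giving 19938 genes. No 2 arrays were duplicates (smallest root mean square difference 0.357).

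All genes were fitted with limma 3.58.1 in R 4.3.3 (lmFit, eBayes) on 5 group means over 17 arrays, with no covariate. P-values were adjusted by Benjamini-Hochberg over 19938 genes, and a gene was called at an adjusted p under 0.05. On simulated data of 19938 genes the procedure was tested before use. The simulated arrays held no group shift in overall level and no trend with brightness, so that test does not cover either. Promoter letters were searched on both strands in RefSeq windows. The members and all gene lists were chosen with earlier results of these data known. All members are named. Values on each array are given for the 4 highest and 4 lowest moderated t in Men1flf RIP-Cre against RIP-Cre, for the 2 highest and 2 lowest in every other comparison, and for members whose probe sets disagree in sign. Those of Ndufc2 and Ndufa13 were added after their values were seen. Of each other list, up to 2 genes at either end are named. Alternatives covered scaling, control group, arrays, replicate block, filters, variance model and probe set. The 3 probe sets naming several member symbols were left out of the tests.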

Additional observations from a re-analysis of the deposited data

Results flagged for a closer look

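Among the 4-array groups, 5 of 70 member groups held an array far from the others, where chance gives about 1 in 20. Ndufa10 was at 10.36 on Rbp2flf RIP-Cre array 3, with the others at 10.30 to 10.31. Ndufs1 was at 8.62 on Rbp2flf RIP-Cre array 4, with the others at 8.99 to 9.05. Ndufs4 was at 9.80 on Rbp2flf RIP-Cre array 1, and Ndufs6 at 9.93 on Rbp2flf RIP-Cre array 3, where the others were at 10.12. Ndufv3 was at 10.17 on double array 2, with the others at 10.50 to 10.52.

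Some probe sets that the comparisons did not use were also higher in knockout islets, and those that passed the call are listed first. The second probe set of Ndufc1 was higher by 1.81 (log2) in Men1flf RIP-Cre and by 1.35 in double islets than in RIP-Cre, and the second of Ndufb11 by 0.69 and 0.67. The 2 probe sets naming both Ndufb4 and Ndufb4b, whose copies the array cannot tell apart, were higher by 1.62 and 1.63 in Men1flf RIP-Cre and by 1.31 and 1.35 in double islets. The probe set naming Ndufs5 and its pseudogene Ndufs5-ps was higher by 0.50 and 0.49. In Men1flf RIP-Cre islets the second probe sets of Ndufs3 (0.40, limma adjusted p = 0.0612 over all probe sets) and Ndufa11 (-0.12) did not pass. The share of all probe sets called in these tests is not given here.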

How the results depend on the processing

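Of 152 counts of members under settings that keep all arrays or leave out 3, 125 stayed within 1.5 times. In Men1flf RIP-Cre islets the members called higher were 0 with the array median as a covariate (1.06% of all genes) and 9 among genes above the 75th percentile of level (35.1% of them), and those called lower 0 and 1 (0.923% and 17.6%). In Rbp2flf RIP-Cre islets 8 were called higher under cyclic loess (5.61% of all genes), 1 with the covariate (0.160%), 22 against both control groups together (11.9%), and 2 without RIP-Cre array 3, wt array 1 and wt array 3, the control arrays of highest median (1.52%). In double islets these numbers were 13 under quantile normalization (13.8%) and under cyclic loess (13.9%), 1 with the covariate (0.863%) and 11 without the 3 arrays (7.55%). There 1 member was called lower under quantile normalization (13.5% of all genes), cyclic loess (11.4%), wt as the control (17.9%) and the pooled control (31.2%). Against Men1flf RIP-Cre, 1 was called higher in double islets with the covariate. For the interaction, 1 was called higher under quantile normalization (0.607% of all genes), cyclic loess (0.757%), the 25th and 75th percentile filters (4.50% and 2.75%) and the intensity trend (2.89%). Called lower were 3 with the groups compared alone (3.19%), the replicate block (3.82%) and both filters (4.86% and 11.6%), and 2 with the trend (3.11%). Among the called members, Ndufb11 (-0.031) and Ndufc2 (-0.10) in Men1flf RIP-Cre islets changed sign with the covariate; over all 35 members, 14 were negative there, against 4. The cause was not tested. With 1 array left out, the members called higher were 9 to 15, 2 to 18 and 11 to 22 in the 3 comparisons with RIP-Cre. Over all genes the shares called higher in those fits were 11.5% to 16.1%, 0.622% to 8.35% and 6.30% to 13.7%. The 2 members lower in Men1flf RIP-Cre islets stayed 2, beside 19.4% to 39.7% of all genes. Double against Rbp2flf RIP-Cre gave 0 to 1 members higher (1 without double array 1, beside 0.597% of all genes). The interaction gave 0 to 1 members higher and 0 to 4 lower, beside 0.0752% to 9.93% and 0.0351% to 4.42% of all genes. With group means removed, same-numbered arrays of different groups had a median correlation of 0.011, against -0.005 for arrays of different numbers. The 31 same-numbered pairs ranged from -0.30 to 0.45, with 10 over 0.1. Of 17 arrays, 8 were closest to one of their own number, and no number expected by chance was computed. Whether arrays of 1 number were handled together was not tested. With the replicate block, 14, 11 and 17 members were called higher, beside 15.8%, 5.82% and 11.9% of all genes. There 2, 0 and 0 members were called lower, beside 38.9%, 7.13% and 20.1%. Tests of all probe sets one by one were added after seeing the data. Values near the dim end have little room above background, and the depth of an array is not defined.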
